A study of Mus musculus with 10 samples.

Results

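The comparison sets an apparently unsorted day 32 reprogramming culture against the Sox2-positive and Sox2-negative fractions of the same stage, on 6 of the 10 mouse Affymetrix arrays of the study. Its members were chosen by sample title: 2 day 32 arrays, 2 arrays of the positive fraction and 2 of the negative fraction. All 6 come from secondary mouse embryonic fibroblasts (MEFs), whose genome holds the Yamanaka factors in inducible form, after 32 days of factor expression in standard mouse embryonic stem cell medium. The labels name no fraction for the day 32 sample, and the study's title ties the fractions to RNA FACS, in which fixed cells are sorted by the amount of 1 transcript, here Sox2. The other 4 arrays hold induced pluripotent stem cells (iPSC), 2 grown with 2i and serum and 2 co-cultured with MEFs, and they serve here only as a yardstick. No further allele, strain or donor is given in the labels, nor is it said whether arrays a and b of a group were separate cultures, so every p-value measures only the spread between these samples. In bulk RNA of this kind, fewer cells of a type and less RNA of a gene per cell cannot be told apart.

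Reprogramming by Pou5f1, Sox2, Klf4 and Myc first silences the fibroblast program and raises epithelial genes, and only a part of the cells goes on to switch on the endogenous pluripotency network. Sox2 is a late component of that network, which is why its RNA is used to pick out cells that have reached pluripotency. Where 2 fractions make up a culture, the level of each transcript in the culture lies between its levels in the fractions.

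The 6 arrays did not share 1 technical state. Before any further scaling the day 32 arrays and those of iPSC in 2i had a median log2 value of 5.32 ± 0.03 (SD, n = 4), against 4.31 ± 0.03 (n = 6) in both fractions and in iPSC with MEFs. The 18S ribosomal RNA control probe sets read 5.99 ± 0.55 (n = 4) against 12.75 ± 0.70 (n = 6), and the Actb control probe sets of the 3′ end exceeded those of the 5′ end by 3.21 ± 0.51 against 0.44 ± 0.51 log2 units. The same excess for Gapdh was 1.4 ± 0.6 against 1.8 ± 0.9, with overlap between the classes. The labels name 2 amplification kits without saying which sample had which. All values below are therefore quantile-normalized log2 expression, and each day 32 difference is read beside the difference between iPSC in 2i and iPSC with MEFs, called the iPSC difference here, which crosses the same divide without any day 32 cell. The divide is that of the 18S signal, and its 6 arrays of high signal were not uniform. The Actb excess of the 3′ end was 1.12 and 1.08 in iPSC with MEFs, and 0.05 to 0.21 in the fractions. The deposited upper quartile was 7.37 and 7.35 against 6.87 to 6.91. The part this plays in the gaps below was not tested. The yardstick also carries whatever 2i does against MEFs, and the array class cannot be told apart from the day 32 group.

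The day 32 sample stood apart from its fractions in 4515 genes, and most of the shift ran parallel to the iPSC difference. Of 8599 genes, 3087 were higher (35.9%) and 1428 lower (16.6%) in the day 32 sample than in the mean of the fractions at an adjusted p under 0.05 (limma, Benjamini-Hochberg over all genes). On the deposited scale 93.5% of the called genes were higher in place of 68.4%, since the all-gene median difference moved from 0.42 to 1.49 log2 units. With the probe sets of each gene averaged, 60.9% of the called genes were higher. The iPSC difference was called higher for 1849 genes (21.5%) and lower for 1278 (14.9%), with an all-gene median of 0.24. These 3127 calls rest on every iPSC array: without 2i array a or b they numbered 1665 or 1954, and without MEF co-culture array a or b 1566 or 1589. Across genes, which are not independent replicates, the day 32 and iPSC differences had a Pearson correlation of 0.719 and a Spearman correlation of 0.677, with a slope of 0.775. The pair of differences had the same sign in 4009 of 4515 genes called in the day 32 comparison (88.8%), and in 76.6% of all genes. The correlation was 0.51 among 1064 genes with a mean level under 4 and 0.812 among 1000 genes with a mean over 10.

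The day 32 level lay outside the range of both fractions in 2737 genes (31.8%). A gene was counted as outside when the day 32 sample differed from each fraction in the same direction at an adjusted p under 0.05 and both day 32 arrays lay beyond all 4 fraction arrays. By this rule 1769 genes were above both fractions (20.6%) and 968 below both (11.3%), and without day 32 array a or b the total was 1658 or 1842. By position alone, with no test, both day 32 arrays lay above all 4 fraction arrays in 3093 genes (36%) and below them in 1606 (18.7%), and they overlapped the fraction arrays in 3900. The day 32 mean fell between the means of the fractions in 1764 genes (20.5%). Of the genes above both fractions, 997 also had a called rise in the iPSC difference (56.4%), 755 had none called (42.7%) and 17 had a called fall. Of those below both, 681 had a called fall in the iPSC difference (70.4%), 283 had none called (29.2%) and 4 had a called rise. These splits use the iPSC calls of all 4 iPSC arrays and were not recomputed with fewer.

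**Figure D1:**
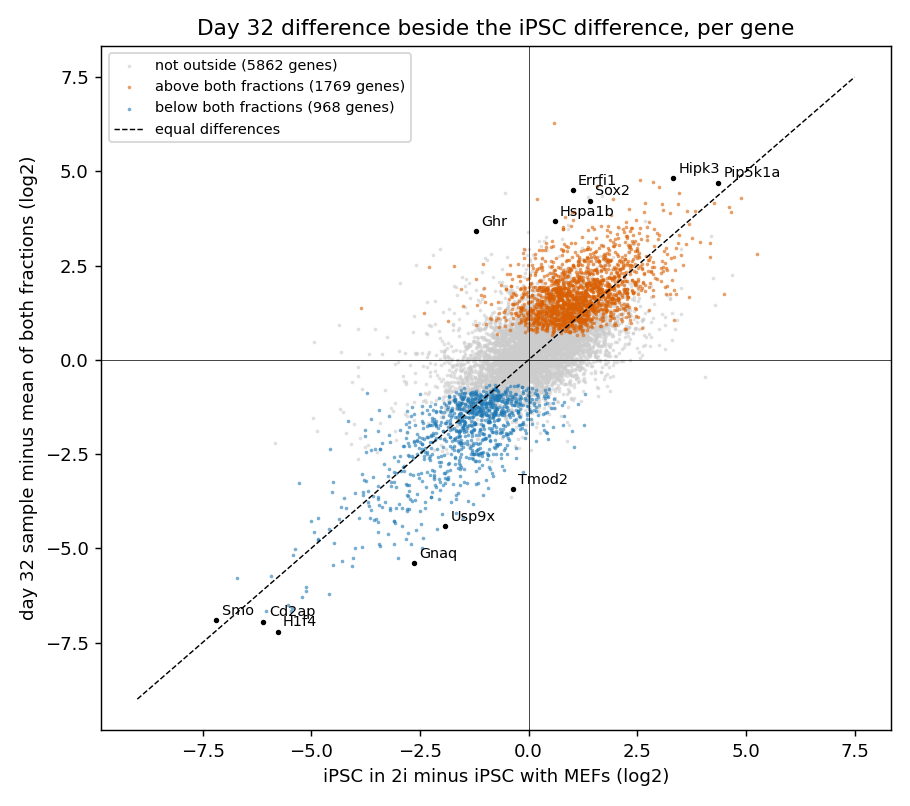
Each point is 1 of 8599 genes, placed by its iPSC difference (x axis, log2 units) and by the day 32 minus fractions difference (y axis, log2 units). Orange points are the 1769 genes above both fractions, blue points the 968 below both, grey points the rest, and the dashed line marks equal differences. The cloud follows the line, with Pip5k1a and Smo close to it and Ghr and Tmod2 far from it.

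The largest excursions that the iPSC arrays shared were falls. H1f4, a linker histone, read 3.63 and 3.64 in the day 32 sample, 11.11 and 9.86 in the positive and 11.03 and 11.37 in the negative fraction, and the iPSC arrays read 3.23 and 3.37 in 2i and 8.68 and 9.46 with MEFs. Cd2ap, an adaptor between membrane receptors and actin, read 4.17 and 4.30 in the day 32 sample, 11.34 and 11.49 in the positive and 10.88 and 11.00 in the negative fraction, 4.58 and 4.45 in 2i and 10.43 and 10.79 with MEFs. For both genes the 4 arrays of low 18S signal were dim and the 6 others bright, with no overlap. Smo, the Hedgehog signal transducer, fell by 6.90 ± 0.27 (SE) in the day 32 comparison (adjusted p = 3.06e-06, limma) beside an iPSC difference of -7.18, and Kdm5c, a histone H3K4 demethylase, fell by 6.67 ± 0.24 beside -5.47. The 4 largest shared rises were Hipk3, a protein kinase (4.81 ± 0.55, iPSC difference 3.32), Ppp3r1, the regulatory subunit of calcineurin (4.77 ± 0.30, iPSC difference 2.57), Uxs1, which makes UDP-xylose (4.72 ± 0.33, iPSC difference 2.86), and Pip5k1a, a phosphoinositide kinase (4.70 ± 0.29, iPSC difference 4.35). Pip5k1a read 10.98 and 10.69 in the day 32 sample and 10.73 and 10.50 in iPSC in 2i, and between 5.74 and 6.68 on the 6 other arrays.

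Different probe sets of 1 gene often gave opposite answers. Each gene was represented by its brightest kept probe set, and 1204 genes outside both fractions had another. Another probe set was outside in the same direction for 391 of them (32.5%) and in the opposite direction for 380 (31.6%). Of all kept probe sets, counted singly, 37% were outside, 2671 above and 2510 below. All other probe sets had the same sign as the one used in 42.2% of these 1204 genes and in 42.1% of all 3445 genes with more than 1. Hipk3 was 4.81 higher at 1 probe set and fell by 4.37 at the other. Smo and Cd2ap, at -6.90 and -6.94, had other probe sets at 0.60 for Smo and at 0.34 and -1.51 for Cd2ap. The probe sets of Usp9x ranged from -6.73 to 1.02. Another probe set was called in the opposite direction for several genes described below by their brightest one. Among these were Sdhc (1.61), Rpl22 (1.17), Grhl2 (-1.12), Esrrb (-1.27), Tbx3 (-1.08), H2aj (1.52), Fabp4 (-0.95) and H1f2 (-4.23). All 3 of Hspa1b were higher, by 3.68, 3.71 and 4.44. A position outside both fractions is therefore a statement about a probe set before it is one about a gene.

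**Figure D2:**
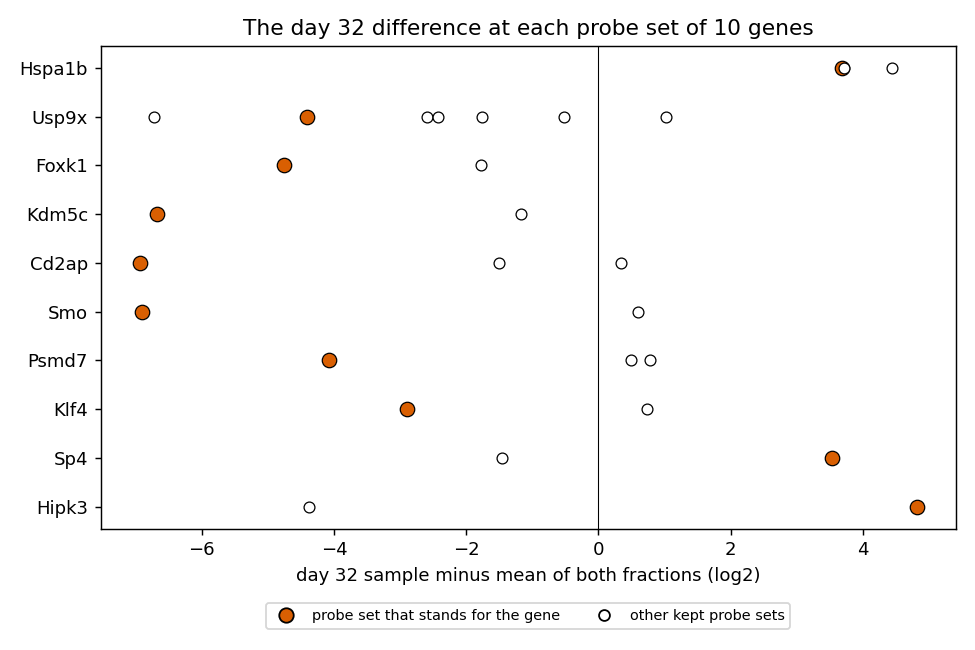
The day 32 minus fractions difference (x axis, log2 units) at every kept probe set of 10 genes, with the probe set that stands for the gene in orange and the others in white. The 3 points of Hspa1b lie together between 3.68 and 4.44, whereas those of Hipk3 lie at 4.81 and -4.37.

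By the test 140 genes moved beyond the iPSC difference, 92 higher (1.07%) and 48 lower (0.558%) at an adjusted p under 0.05 for the difference of the 2 differences (limma). Of these, 80 were also outside both fractions in that direction, 51 above and 29 below, and 30 had no called day 32 difference at all. In 74 of the 140 the iPSC difference itself was called in the opposite direction, so that the gap was made in part or wholly by the iPSC arrays. The count depends on the scaling and the weights, with 1088 genes after median centring, 1095 on the deposited scale and 689 with array weights. It also leaned on single iPSC arrays: without 2i array a, without MEF co-culture array a or without MEF co-culture array b, 0 genes were called by limma, although 1401, 1257 and 1425 had an unadjusted p under 0.05 against 1970 with all arrays. Without 2i array b 16 genes were called, and without day 32 array a or b 14 or 37. Leaving out positive fraction array b or negative fraction array a raised the count to 420 or 311.

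Ets1, a transcription factor of lymphoid and endothelial cells, led the genes above both fractions and beyond the iPSC difference. It read 7.27 and 6.36 in the day 32 sample, 1.85 and 2.28 in the positive and 2.35 and 2.38 in the negative fraction, 4.17 and 4.35 in 2i and 2.88 and 2.52 with MEFs, so the day 32 arrays were the highest of all 10. The difference from the fractions was 4.60 ± 0.29 (SE, adjusted p = 1.56e-05, limma), which rests on fraction values under 4 and is at least 7.03-fold when these are set to 4. Errfi1, a feedback inhibitor of the EGF receptor, read 9.92 and 10.03 in the day 32 sample, 5.0 and 6.48 in the positive and 5.0 and 5.42 in the negative fraction, 9.62 and 9.19 in 2i and 8.63 and 8.15 with MEFs. Its iPSC groups did not differ by the test (1.01, adjusted p = 0.1101, limma), and the fractions stood below all other arrays. Cebpa, a regulator of adipocyte and myeloid differentiation, read 7.21 and 6.40 in the day 32 sample, 1.73 and 2.16 in the positive and 4.16 and 3.44 in the negative fraction, and at most 3.34 on the iPSC arrays. Ghr, the growth hormone receptor, had 6.34 and 5.93 in the day 32 sample and 2.24 and 1.94 in the positive and 3.21 and 3.50 in the negative fraction, with an iPSC difference that ran the other way (-1.21). Its gap between the 2 differences was 4.62 ± 0.50 (adjusted p = 0.0126, limma), the largest of the 10 genes.

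The remaining genes of this group were Rad1, a subunit of the checkpoint clamp (3.84 ± 0.21, iPSC difference 1.90), Sh3bgrl2 (3.71 ± 0.31, iPSC difference 1.02), Sp4, a zinc finger transcription factor (3.53 ± 0.24, iPSC difference 0.80), Ankrd46 (3.25 ± 0.22, iPSC difference 1.23), and Sox2 and Hspa1b, described below. Rad1 read 9.40 and 9.64 in the day 32 sample, between 5.36 and 5.99 on the 4 fraction arrays, 9.77 and 9.67 in 2i and 7.73 and 7.90 with MEFs. There the day 32 sample was near iPSC in 2i and the fractions lay below iPSC with MEFs. The second probe set of Sp4 fell by 1.46, whereas the others of these 4 genes had 1 kept probe set.

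Gnaq, the alpha subunit of the Gq protein, fell furthest below both fractions beyond the iPSC difference. It read 2.83 and 2.88 in the day 32 sample, 8.54 and 7.88 in the positive and 8.57 and 8.06 in the negative fraction, 2.55 and 2.52 in 2i and 5.12 and 5.21 with MEFs. The day 32 sample and iPSC in 2i were both dim, and the fractions exceeded iPSC with MEFs by a clear step. The day 32 difference was -5.40 ± 0.25 (SE, adjusted p = 4.70e-06, limma), at least 19.2-fold lower when the dim values are set to 4. The same order of groups, with day 32 values near or below those of iPSC in 2i and MEF co-culture values in between, was seen for H2bc22, an H2B histone (-4.89 beside -2.69), Foxk1, a forkhead factor (-4.76 beside -2.81), Plag1, a zinc finger factor (-4.51 beside -2.58), Psmd7, a proteasome lid subunit (-4.07 beside -1.66), Prf1, the perforin of cytotoxic lymphocytes (-3.82 beside -1.28), Rab5b, an early endosome GTPase (-3.76 beside -1.40), and Insr, the insulin receptor (-3.68 beside -1.66). For Foxk1, Plag1, Rab5b and Insr every day 32 array was under 4, so these falls are bounds at least 9.07-, 5.78-, 4.96- and 6.81-fold deep.

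Usp9x, an X-linked deubiquitinase, kept a measurable level throughout, with 6.81 and 7.40 in the day 32 sample, 11.89 and 11.74 in the positive and 11.19 and 11.26 in the negative fraction, 9.23 and 8.55 in 2i and 10.92 and 10.69 with MEFs. Tmod2, which caps actin filaments, was the exception in having no called iPSC difference. It read 4.0 and 3.25 in the day 32 sample, 5.70 and 5.55 in the positive and 8.03 and 8.95 in the negative fraction, while the 4 iPSC arrays lay between 3.04 and 3.51. The other probe set of Tmod2 differed by -0.13 (adjusted p = 0.760 in the limma fit over all probe sets), and both other probe sets of Psmd7 were higher, by 0.78 and 0.49.

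**Figure D3:**
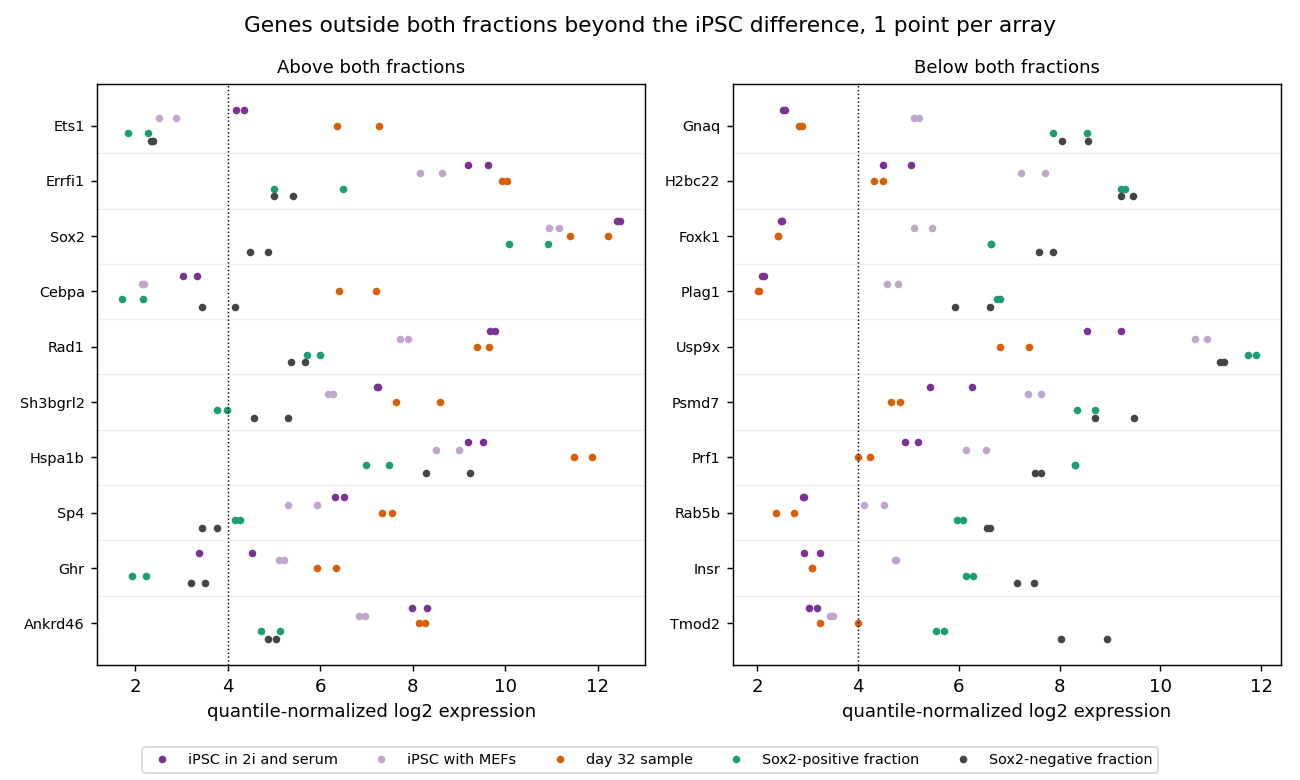
Quantile-normalized log2 expression (x axis) on each of the 10 arrays for 10 genes above (left) and 10 below (right) both fractions beyond the iPSC difference, with groups in separate colours and a dotted line at 4, the limit of the filter. The orange day 32 points lie outside the green and dark fraction points in all 20 rows. The comparison with the iPSC difference uses the mean of both fractions. The step of Sox2 above the positive fraction alone (1.30) was smaller than its iPSC difference (1.41).

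Sox2, the transcript used for the sort, was higher in the day 32 sample than in the fraction chosen for it. It read 11.39 and 12.22 in the day 32 sample, 10.08 and 10.93 in the positive and 4.88 and 4.48 in the negative fraction, 12.48 and 12.42 in 2i and 10.94 and 11.15 with MEFs. The day 32 sample exceeded the positive fraction by 1.30 ± 0.37 (SE, adjusted p = 0.0198, limma) and the negative by 7.13 ± 0.37. The iPSC difference was 1.41, close to the step from the positive fraction, and the 4.21 from the mean of both fractions is large because the fractions lay 5.82 apart. Klf4 read 6.92 and 8.86 in the day 32 sample, 10.66 and 10.27 in the positive and 10.90 and 11.28 in the negative fraction, and fell by 2.89 ± 0.51 (adjusted p = 0.0021, limma). Its other probe set was 0.74 higher, not called. Myc read 5.36 and 5.51 in the day 32 sample, 9.98 and 7.23 in the positive and 9.65 and 10.41 in the negative fraction, 4.31 and 6.75 in 2i and 9.18 and 9.21 with MEFs, and its day 32 difference of -3.88 stood beside an iPSC difference of -3.67. Of the 4 factors Pou5f1 differed least, with 10.31 and 10.32 in the day 32 sample, 11.34 and 10.87 in the positive and 10.59 and 11.51 in the negative fraction, and it was not called (-0.76, adjusted p = 0.0512, limma). The arrays cannot tell transcripts of the inducible copies from those of the endogenous genes where a probe set lies in the shared sequence.

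Heat shock genes split, with Hspa1b alone above both fractions at the brightest probe set. Hspa1b and Hspa1a encode the near-identical inducible HSP70 chaperones and lie beside each other on chromosome 17. Their promoters are shown because both genes were outside the fractions, in opposite directions, although the sequences hardly differ. The 250 bases before each start site (RefSeq, GRCm38.p6, minus strand, chr17:34972157-34972406 for Hspa1a and chr17:34959239-34959488 for Hspa1b) are printed 5′ to 3′, and capitals mark the letters GAANNTTC, a core of the heat shock element.
Hspa1a: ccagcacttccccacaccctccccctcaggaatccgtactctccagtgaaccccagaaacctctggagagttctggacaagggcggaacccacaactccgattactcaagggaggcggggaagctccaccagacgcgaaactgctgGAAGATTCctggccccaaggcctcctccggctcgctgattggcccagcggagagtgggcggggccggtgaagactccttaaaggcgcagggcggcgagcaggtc
Hspa1b: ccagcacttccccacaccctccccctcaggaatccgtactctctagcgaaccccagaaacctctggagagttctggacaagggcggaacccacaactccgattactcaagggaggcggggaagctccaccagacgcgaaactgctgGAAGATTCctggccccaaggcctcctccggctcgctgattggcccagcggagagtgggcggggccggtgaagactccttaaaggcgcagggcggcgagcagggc
The stretches were identical at 247 of 250 bases (98.8%), and each held 1 match, which begins 104 bases before the start. The letters GAANNTTC and TTCNNGAA were searched; each reads the same on both strands, and matches may overlap. At least 1 match was found in 4073 of 27025 promoters of 300 bases, which add 50 bases after the start (15.1%), and at least 2 in 510 (1.89%). Of the 14 measured heat shock genes 12 had a promoter in the table, 8 of them with at least 1 match and 3 with at least 2.

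Hspa1b read 11.86 and 11.49 in the day 32 sample, 6.99 and 7.48 in the positive and 8.28 and 9.24 in the negative fraction, 9.19 and 9.51 in 2i and 8.51 and 8.99 with MEFs. The day 32 arrays were the highest of all 10, and the difference was 3.68 ± 0.32 (SE, adjusted p = 8.25e-05, limma) beside an iPSC difference of 0.60. Hspa1a read 6.18 and 5.58 in the day 32 sample, 6.61 and 7.06 in the positive and 6.61 and 6.76 in the negative fraction, but 3.05 and 2.88 in 2i and 6.59 and 6.76 with MEFs. It was -0.88 from the fractions beside an iPSC difference of -3.71, so its gap between the differences was 2.83 (adjusted p = 0.0237, limma), in the same direction as the 3.08 of Hspa1b. Since the paralogs share sequence, the split of signal between them is uncertain.

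Of the 14 heat shock genes 1 was called higher and 5 lower, against 35.9% and 16.6% of all genes. The median was -0.04, and the iPSC difference was called higher for 1 and lower for 5. Hspa1a, the HSP40 genes Dnajb1 (-1.13) and Dnaja1 (-1.13), Hspa4 (-1.18) and the mitochondrial chaperonin Hspd1 (-0.89) were all below both fractions. On the deposited scale 8 of the 14 were higher and 0 lower, so this split depends on the scaling, and Hspa1a, Dnajb1, Dnaja1 and Hspd1 changed sign there, whereas Hspa1b was above the fractions on either scale.

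Immediate early genes, which are switched on within minutes by growth factors and stress, went both ways in the day 32 sample and only lower in the iPSC difference. Of 23 measured, 6 were called higher and 5 lower, against 35.9% and 16.6% of all genes, with a median of 0.07. The iPSC difference was called higher for 0 and lower for 10, with a median of -1.16. On the deposited scale 14 were higher and 1 lower in the day 32 sample (median 1.28), so the even split depends on the scaling. Fos read 9.52 and 9.43 in the day 32 sample, 9.51 and 9.22 in the positive and 9.32 and 7.96 in the negative fraction, 5.72 and 4.81 in 2i and 10.79 and 9.63 with MEFs. The 2i arrays were the lowest of the 10, and the gap of 5.42 ± 0.70 between the differences (adjusted p = 0.0237, limma) came with a day 32 difference of 0.48 that was not called. Dusp1, a phosphatase that ends MAP kinase signalling, likewise had 0.08 in the day 32 comparison and -2.33 in the iPSC difference. Fosb fell by 1.55 beside -4.95. Srf (-2.0), the RNA-destabilizing Zfp36 (-2.38) and Maff (-1.33) were below both fractions, each with a called fall in the iPSC difference, and Gadd45g was above both (1.23).

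Histone genes were low in the day 32 sample. Of 10 measured, 7 were below both fractions and H1f2 alone above, against 11.3% and 20.6% of all genes. The median was -1.61 beside a median iPSC difference of -1.16. Besides H1f4 and H2bc22, H2aj read 8.17 and 8.62 in the day 32 sample and between 10.47 and 11.32 in the fractions, a difference of -2.49 ± 0.27 beside -2.33. H2ac19 (-2.49) and H2ax (-1.43), the variant marked at DNA breaks, followed. H1f2 was 1.88 higher at its brightest probe set but -0.67 when its probe sets were averaged. Another of its probe sets was below both fractions (-4.23). Most core histone transcripts end without a poly(A) tail, the labels state poly(A) RNA, and the 6 arrays of high 18S signal include those where histone signal was high. Whether RNA selection or amplification takes part was not tested.

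**Figure D4:**
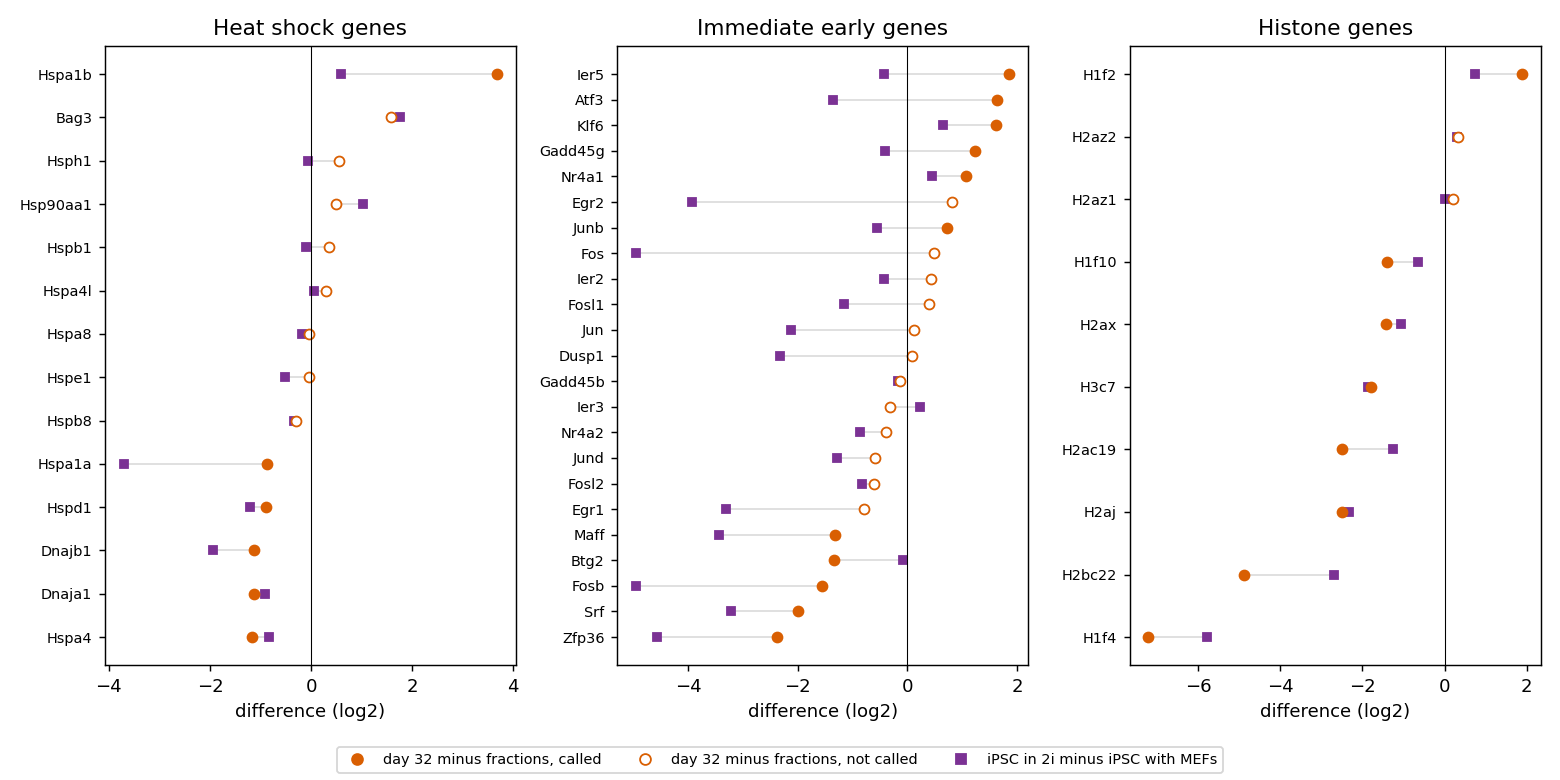
Differences (x axis, log2 units) of every measured heat shock (left), immediate early (middle) and histone gene (right). Circles are day 32 minus fractions, filled where called, and purple squares are the iPSC difference. Hspa1b lies 3.68 above 0 with its square at 0.60, whereas Fos has its circle at 0.48 and its square at -4.94.

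Among cell state genes, lists for pluripotency, germ line and fibroblasts were all called higher more often than lower. Over all genes 35.9% were higher and 16.6% lower, and on the log2 scale a blend of a high and a low fraction lies above their mean whenever both are well represented. Of 16 naive pluripotency genes 8 were higher and 2 lower, with a median of 1.30 beside an iPSC median of 0.29. Zfp42 (Rex1) read 10.43 and 11.61 in the day 32 sample, 9.77 and 10.67 in the positive and 2.67 and 3.54 in the negative fraction. Tfcp2l1, a self-renewal factor, read 7.94 and 9.27 in the day 32 sample, 7.42 and 7.63 in the positive and 2.41 and 3.03 in the negative fraction. For both, the day 32 arrays were level with or above the positive fraction and far above the negative. The list as a whole was not: its mean level was 7.58 and 8.84 in the day 32 sample. It was 8.96 and 9.22 in the positive and 4.79 and 4.91 in the negative fraction. By the test 0 of the 16 were above both fractions. Of the 13 used for the mixture below, 9 had a day 32 mean between the fractions. Esrrb (3.04), Fbxo15 (1.98), Klf2 (1.82) and Tbx3 (1.68) were higher, and Klf4 and Pecam1 (-1.42), an adhesion protein, lower. Dppa3 was not called (0.92) but had an iPSC difference of -4.36, which gave a gap of 5.29 (adjusted p = 0.0244, limma). Of 15 general pluripotency genes 6 were higher and 0 lower, with Nanog at 0.90. Of 10 germ cell genes 6 were higher and 0 lower, with a median of 2.04; Ddx4 (Vasa) read 5.48 and 7.81 in the day 32 sample, 4.59 and 6.72 in the positive and 1.67 and 1.81 in the negative fraction.

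Fibroblast and mesenchymal genes were called higher in 10 of 22 and lower in 0, with a median of 1.48 beside an iPSC median of -0.09. Twist1, a mesenchymal transcription factor, was above both fractions. It read 6.89 and 7.34 in the day 32 sample, 3.56 and 4.67 in the positive and 3.89 and 4.61 in the negative fraction. The day 32 sample was higher by 2.93 ± 0.36 (adjusted p = 3.66e-04, limma). Pdgfra, a receptor of mesenchymal cells, was the other such gene (1.59, at 3.87 and 4.91 in the day 32 sample, near the limit of 4). Col6a1, a collagen, read 7.29 and 6.49 in the day 32 sample, 2.32 and 3.04 in the positive and 6.09 and 6.77 in the negative fraction, with 2.34 in the day 32 comparison and -1.07 in the iPSC difference. S100a4 differed by 1.93. Col1a2 was at or under 2.41 on all 6 arrays of the comparison, and its gap of 3.81 came from the MEF co-culture alone (5.96 and 5.72). Ccn1, a matricellular target of YAP, was 1.86 higher beside an iPSC difference of -1.21.

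Keratinocyte, epithelial and adipocyte genes were also called higher more often than lower, as were all genes (35.9% against 16.6%). Of 7 measured keratinocyte and stress keratin genes 5 were higher and 0 lower, and Krt14 (1.92), Sfn (1.51) and Krt16 (1.09) were above both fractions. Krt14 read 4.97 and 4.74 in the day 32 sample against 2.50 and 2.49 in the positive and 3.43 and 3.36 in the negative fraction. Of 20 epithelial genes 8 were higher, a share near that of all genes, and 1 lower. All 8 epithelial genes among those used for the mixture were higher in the positive than in the negative fraction. E-cadherin, Cdh1, read 11.65 and 12.33 in the day 32 sample, 10.95 and 11.74 in the positive and 7.55 and 7.72 in the negative fraction, and Cldn4 fell by 1.57. Grhl2, an epithelial transcription factor, was 2.02 higher beside an iPSC difference of -2.97, a gap of 4.99. Of 7 adipocyte genes 4 were higher and 0 lower, among them Pparg (6.26 and 5.97 in the day 32 sample, 3.40 and 2.45 in the positive and 6.36 and 6.99 in the negative fraction) and Adipoq (1.38).

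Of 12 p53 target genes 7 were higher and 0 lower, against 35.9% and 16.6% of all genes. The median was 0.80 beside an iPSC median of 0.71, and the iPSC difference was called higher for 3 and lower for 0. The death receptor Fas (2.69) and Sesn1 (2.09) were above both fractions. Cdkn2a, the Ink4a and Arf locus, read 6.47 and 5.89 in the day 32 sample, 3.63 and 3.01 in the positive and 4.30 and 4.40 in the negative fraction, and its difference of 2.35 was close to the iPSC difference of 2.33.

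Ribosomal protein and oxidative phosphorylation genes were called lower more often than higher in the day 32 sample, unlike all genes (16.6% lower, 35.9% higher), on the quantile scale. Of 44 ribosomal protein genes 17 were lower and 5 higher, with 12 below and 2 above both fractions, whereas the iPSC difference was called lower for 6 and higher for 7. Rpl22 fell by 1.75 beside -1.31 whereas Rps6 was 2.76 higher beside 1.70. On the deposited scale 10 were higher and 8 lower. Of 71 oxidative phosphorylation genes 22 were lower and 14 higher, with a median of -0.22, against 13 lower and 16 higher with a median of 0.07 in the iPSC difference. They were led by Sdhc of complex II (-3.59 beside -2.81) and Ndufb3 of complex I (2.16 beside 1.90), and on the deposited scale 37 were higher and 5 lower. The other probe sets of Rpl22 and Sdhc were above both fractions, by 1.17 and 1.61. The nuclear noncoding RNA Malat1 (-1.52 beside -1.37) and Gas5 (-1.19 beside -1.0) were below both fractions. For none of these 6 named genes was the gap between the 2 differences called.

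Markers of blood and endothelial cells were sparse. Only 3 of 14 macrophage and blood genes passed the filter, with a mean level of 6.55 and 7.31 on the day 32 arrays and between 6.46 and 7.72 on all others; Laptm5 was lower (-1.65) and Fcer1g higher (0.79). Of 11 endothelial genes 3 passed, with mean levels of 6.02 and 6.13 in the day 32 sample and 0 called, and of 5 erythroid genes 0 passed. Their part in the results was not tested.

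A mixture of the fractions could be read on 528 genes that limma called between them with a difference of at least 2 log2 units. In all, 668 genes were higher (7.77%) and 535 lower (6.22%) in the positive than in the negative fraction, 1203 in sum, and 735, 731 or 571 without MEF co-culture array a, MEF co-culture array b or positive fraction array b. Mixing was modelled on the linear scale, as a share of the positive and the rest of the negative fraction, and the share with the smallest median absolute gap to the day 32 mean was 0.63. The median gap was then 0.85 log2 units, and shares from 0.29 to 0.71 came within 0.05 of it. The day 32 mean lay between the fractions in 343 of the 528 genes (65%), above both in 149 and below both in 36. These genes were chosen on the fraction arrays, so the positions are a description.

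The 2 sides of the sort did not give 1 share. Over 326 genes higher in the positive fraction the share was 0.61, with 232 between the fractions (71.2%), 77 above both and 17 below. Over 202 genes higher in the negative fraction it was 0.13, which gives the negative fraction 0.87, with 111 between (55%), 72 above both and 19 below. The day 32 sample thus sat near the positive fraction for genes of the positive fraction and near the negative for genes of the negative, and the shares add up to more than a whole. With the iPSC difference subtracted from each gene, the shares became 0.45 and 0.47 for these sets and 0.45 for all, with 73.9% of the 528 genes between the fractions. With the all-gene median of the day 32 difference subtracted, an alternative added after the data were seen, they were 0.43, 0.36 and 0.40. By the test 5 of the 326 genes were above and 8 below both fractions (3.99%), and 9 of the 202 above and 7 below (7.92%), against 31.8% of all genes, whose fractions mostly lie closer together.

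Trap1a, an X-linked tumour antigen of germ and stem cells, led the positive side with 9.58 and 10.35 in the positive and 1.95 and 2.58 in the negative fraction, and 7.91 and 9.68 in the day 32 sample. Dppa2 (8.31 and 10.24), Morc1 (6.98 and 9.10) and Dppa5a (11.15 and 11.96) also had means under those of the positive fraction, which were 10.59, 9.50 and 12.49. The fatty acid carrier Fabp3 read 10.41 and 11.74 in the day 32 sample, on either side of 11.42 and 11.46 in the positive fraction. Zfp936 read 3.55 and 5.43 in the day 32 sample, 8.35 and 8.97 in the positive and 1.5 and 1.91 in the negative fraction, and Slc11a1, a metal transporter, read 6.71 and 9.45 in the day 32 sample, 9.80 and 10.91 in the positive and 3.84 and 3.50 in the negative fraction. On the log2 scale these 2 sat nearest the middle among the 8 largest genes, at positions of 0.40 and 0.66. On the linear scale of the mixture their positive shares were only 0.05 and 0.20. There Dppa5a (0.52), Trap1a (0.44), Dppa2 (0.40) and Morc1 (0.36) were nearer the middle, with Fabp3 at 0.77 and Zfp42 at 1.75. On the negative side Krt6b, a stress keratin, read 8.07 and 10.67 in the day 32 sample, 2.35 and 3.50 in the positive and 9.0 and 11.52 in the negative fraction. Fabp4, a fatty acid carrier of adipocytes, read 11.67 and 10.25 in the day 32 sample, 5.99 and 5.68 in the positive and 12.39 and 11.62 in the negative fraction. Efemp1 (9.69 and 8.72), the xenobiotic enzymes Cyp1b1 (8.95 and 8.10) and Mgst1 (10.66 and 8.90) were near the level of the negative fraction, with negative means of 9.11, 8.69 and 9.18, and Efemp1 had a gap of 2.92 to the iPSC difference. Thbs1 (6.25 and 5.76) and the cytokine Csf1 (6.30 and 6.21) stayed below it, at negative means of 8.54 and 9.34, and Ptx3, a secreted pattern recognition protein, read 6.95 and 6.38 against 8.52 and 6.70.

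The 2 day 32 arrays differed along the same axis as the fractions. Array b exceeded array a in 316 of the 326 genes higher in the positive fraction (96.9%), by a median of 1.27, and in 18 of the 202 genes higher in the negative fraction (8.91%), with a median of -0.79, against 52.9% of all 8599 genes. All 16 naive pluripotency genes, 14 of 15 general pluripotency genes and all 10 germ cell genes were higher on array b. Fitted alone, array a gave a positive share of 0.26 and array b 0.58 over the 528 genes, and over the 326 genes of the positive side the shares were 0.23 and 0.92. The positive fraction showed the same tilt, with array b above array a in 75.5% and 32.2% of the 2 sets. The negative fraction had 52.8% and 54%, iPSC in 2i 43.9% and 51.5%, and iPSC with MEFs 43.9% and 38.6%. Dazl, a germ cell RNA-binding protein, read 5.28 and 8.70 in the day 32 sample, 5.67 and 8.85 in the positive and 1.20 and 1.55 in the negative fraction. A single mixture share therefore does not describe both day 32 arrays.

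**Figure D5:**
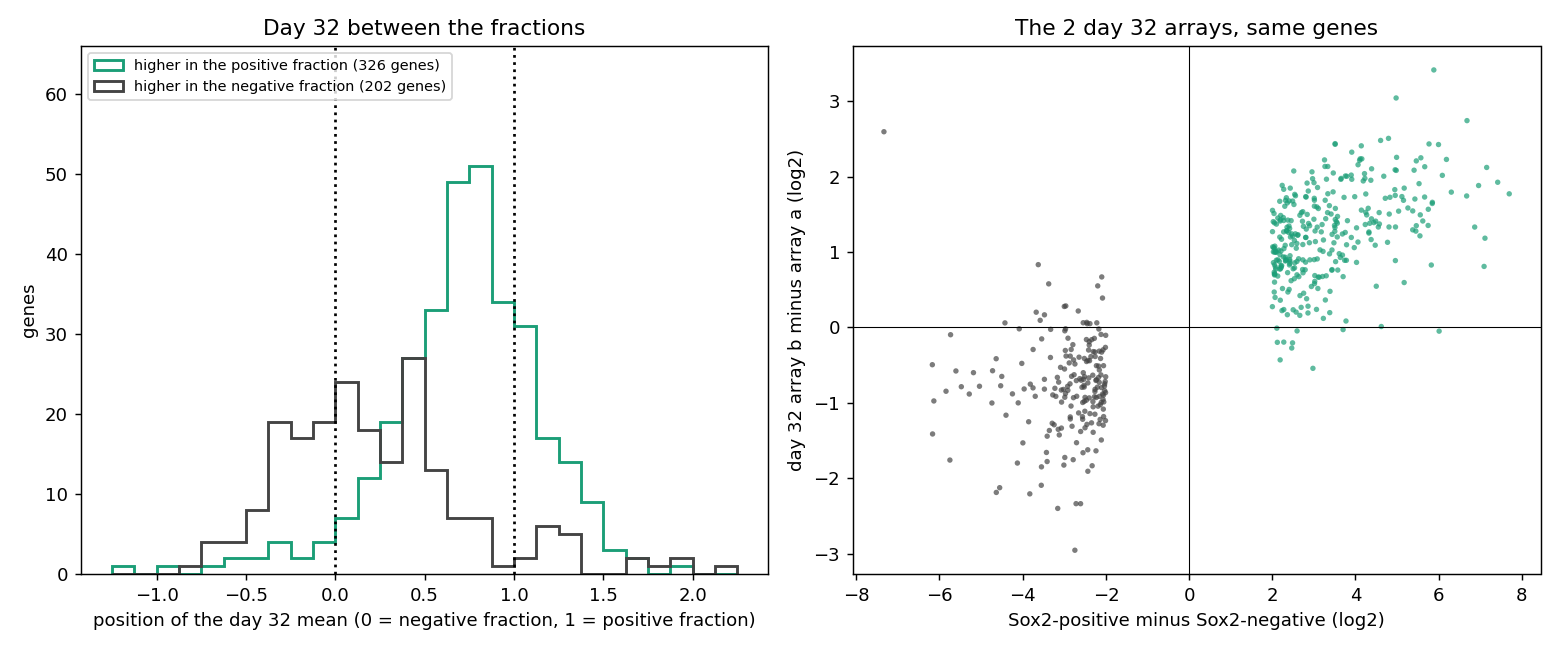
Left, number of genes (y axis) by position of the day 32 mean on the log2 scale, where 0 is the negative and 1 the positive fraction (x axis), for the 326 genes higher in the positive (green) and the 202 higher in the negative fraction (dark), with values beyond the ends drawn in the last bins. Right, day 32 array b minus array a (y axis, log2) against the positive minus negative difference (x axis, log2) of the same genes, of which 316 of 326 on the right side lie above 0 and 18 of 202 on the left.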

How the data were processed

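The 10 arrays measured RNA extracted with Trizol and amplified with NuGEN kits, per the labels' protocols. The deposited log2 expression values were made by the authors with GCRMA and affy, per the submitters' processing notes, with versions not given in the sources used here. Of 22690 probe sets, 64 controls were set aside. The others were quantile-normalized over all 10 arrays. Probe sets with 1 gene symbol (20380; 691 had several and 1555 none) were kept when the deposited value exceeded 4 on at least 2 arrays, which left 14012, and the brightest stood for its gene (8599 genes). The RefSeq table held the Entrez ID of 20351 probe sets and changed 0 symbols.

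Limma 3.58.1 in R 4.3.3 fitted a mean per group over all 10 arrays (residual degrees of freedom 5, prior 3.7), and p-values were adjusted by Benjamini-Hochberg over all genes. The fit was also run on simulated data with independent arrays and shifts in the day 32 group alone. These data held no array class difference, so the run cannot show how the fit handles one. Precision is limited by having 2 arrays a group. The median absolute difference between replicates was 0.24 to 0.43 log2 units, and no pair shared more than 1.49% identical values. An at least so many fold difference sets the dimmer group to 4.

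Named genes are the 4 Yamanaka genes, the 10 largest each way outside both fractions and beyond the iPSC difference, the 4 largest each way that the iPSC difference shares, the 8 largest each way between the fractions, and list members in order of adjusted p. Lists are described by counts. Dppa3, Klf2, Tbx3, Fos, Dusp1, H1f2 and Col1a2, with Calcrl, Ripk4, Ncam1, Igf2r and Nnat in the closing section, lie outside this rule and were chosen after their values were seen. The members and lists were chosen with earlier results of these data known. Alternatives covered normalization, filter, array weights, probe sets, the replicate block and each array left out. Plots were made in Python 3.11.15 (matplotlib 3.10.9).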

Additional observations from a re-analysis of the deposited data

Results flagged for a closer look

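The day 32 difference and the iPSC difference departed from each other by limma's test in 30 genes named above, and the gap between them is given here in log2 units. Above both fractions these were Ets1 (3.03), Errfi1 (3.49), Sox2 (2.81), Cebpa (2.93), Rad1 (1.94), Sh3bgrl2 (2.69), Hspa1b (3.08), Sp4 (2.73), Ghr (4.62) and Ankrd46 (2.02). Below both fractions they were Gnaq (-2.77), H2bc22 (-2.19), Foxk1 (-1.95), Plag1 (-1.93), Usp9x (-2.50), Psmd7 (-2.41), Prf1 (-2.54), Rab5b (-2.35), Insr (-2.02) and Tmod2 (-3.06). In Hspa1a (2.83), Fos (5.42), Fosb (3.40), Dusp1 (2.40), Col1a2 (3.81), Grhl2 (4.99), Ccn1 (3.06) and Dppa3 (5.29) the iPSC difference was called lower, and in Efemp1 (2.92) and Col6a1 (3.41) it was not called. The day 32 difference is taken from the mean of both fractions, which lay far apart in Efemp1, Col6a1 and Sox2. Efemp1 was level with the negative fraction (means 9.21 and 9.11), and Col6a1 was near it (6.89 and 6.43). Sox2 exceeded the positive fraction by 1.30, beside an iPSC difference of 1.41. All 30 calls ended without 2i array a, without MEF co-culture array a or without MEF co-culture array b. The sign of the gap was kept there. Most of the calls also ended without 2i array b, without day 32 array a or without day 32 array b. The part that 2i or MEF co-culture plays in these gaps was not tested.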

How the results depend on the processing

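With the deposited values unscaled, 6814 genes were called in the day 32 comparison, 5253 in the iPSC difference, 1095 in the difference of the 2 differences and 5431 outside both fractions, in place of 4515, 3127, 140 and 2737. The sign of Csf1 (0.97), Hspa1a (0.47), Dnajb1 (0.0825), Dnaja1 (0.015), Hspd1 (0.03) and Maff (0.0125) turned there, and that of H1f2 (-0.67) with probe sets averaged. The difference of the differences gave 1088 calls with median centring, 282 with no filter and 689 with array weights, and the fractions gave 393 with the 6 arrays alone and 432 with array weights. Leaving out single arrays gave 3044 to 4566 calls in the day 32 comparison, 1566 to 3469 in the iPSC difference, 0 to 420 in the difference of the differences, 1658 to 2635 genes outside, 571 to 1268 between the fractions and mixture shares of 0.24 to 0.65. The mixture share was 0.26 with day 32 array a alone and 0.40 with the all-gene median subtracted. The causes were not tested. The letters a and b alone do not show which samples were paired. Over genes, a minus b of the day 32 sample had a correlation of 0.32 with that of the positive fraction. With the negative fraction it was 0.22, and the other pairs of groups lay between -0.07 and 0.06. Whether arrays of the same letter share a culture or batch was not tested. The replicate block gave 4541 calls in the day 32 comparison, 160 in the difference of the differences, 2704 outside and a mixture share of 0.40. Dim probe sets limit the rest: 285 genes were under 4 on all 6 arrays, 61 of them outside.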

Other observations

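Other genes far above both fractions are given here as values only. Calcrl, a receptor for CGRP and adrenomedullin, read 10.03 and 6.81 in the day 32 sample, 2.04 and 1.75 in the positive and 3.14 and 1.57 in the negative fraction, 2.50 and 2.34 in 2i and 1.89 and 1.80 with MEFs. Its difference of 6.29 ± 0.77 (SE, adjusted p = 3.58e-04, limma) stood beside an iPSC difference of 0.57, and the gap missed the threshold (adjusted p = 0.0521). Ripk4, a kinase of keratinocyte differentiation, read 8.51 and 8.75 in the day 32 sample, 3.83 and 5.93 in the positive and 3.29 and 4.39 in the negative fraction, 7.30 and 6.40 in 2i and 6.99 and 6.31 with MEFs. Ncam1, a neural adhesion molecule, was 4.42 higher beside an iPSC difference of 3.47.

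Imprinted genes went both ways, with 3 of 15 called higher and 2 lower, against 35.9% and 16.6% of all genes. Igf2r, the receptor that clears IGF2, read 10.33 and 10.31 in the day 32 sample, 7.66 and 8.33 in the positive and 8.75 and 7.71 in the negative fraction, and was above both with an iPSC difference of 0.57 that was not called. Nnat read 2.68 and 4.36 in the day 32 sample, 6.83 and 7.07 in the positive and 5.56 and 8.71 in the negative fraction, and its difference of -3.52 stood beside -4.52 between the iPSC groups.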
